A study of Mus musculus with 12 samples.

Results

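The insulin-like growth factor (IGF) system was followed through its ligands, receptors and binding proteins in whole lungs of mouse embryos at stage E15.5, in which the kinases MEK1 and MEK2 had been removed to different degrees. Its members were all probes whose symbol in the platform annotation was Igf1, Igf2, Igf1r, Igf2r, Igfbp3, Igfbp4, Igfbp5, Igfbp6, Igfbp7 or H19, without regard to their values. This gave 12 of the 25697 probes on the Illumina bead array, for 9 of the 10 genes. No probe carried the H19 symbol in the annotation used here, and H19 is not analysed here. Of the 12 probes, 11 passed the filter on dim probes, which asked for 4 or more arrays with a detection p under 0.01, so that each of the 9 genes kept at least 1 probe. The second Igfbp7 probe never rose above background (0 of 12 arrays) and was not tested.

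All lungs were from the 129/Sv strain and carried Dermo1+/Cre, a recombinase placed in the Twist2 locus that is active in embryonic mesenchyme, and each of 3 genotypes had 4 specimens. Controls carried this driver alone. In the group called here 1 Mek1 allele the genotype was Mek1+/flox;Mek2-/-;Dermo1+/Cre, so both Mek2 copies carried the mutant allele in every cell and recombined mesenchyme kept a single Mek1 copy. The group called here double mutant was Mek1flox/flox;Mek2-/-;Dermo1+/Cre. By this genotype recombined mesenchyme lacks both kinases, while cells without recombination keep Mek1. Which cell types recombined was not measured here. The labels leave unsaid if lungs were pooled, and p-values measure only the spread among these specimens, which may be technical. In whole-lung RNA, fewer cells of a type and less RNA per cell cannot be told apart.

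IGF1 and IGF2 are secreted growth factors that bind the tyrosine kinase receptor IGF1R, from which signals run through PI3K and AKT and through RAS, RAF, MEK and ERK. IGF2R carries IGF2 to lysosomes and so removes it, and the IGF binding proteins hold the ligands in the extracellular space, where they prolong or block their action. In the mouse Igf2 is expressed from the paternal copy and Igf2r mainly from the maternal one, and fetal tissues, the lung mesenchyme among them, are rich in Igf2.

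In these lungs 1 of the 11 tested probes passed the threshold (adjusted p under 0.05) in double mutants against 1 Mek1 allele, where 0.397% of all 11841 probes did. In double mutants against controls and in 1 Mek1 allele against controls 0 of the 11 passed, where 2.97% and 0.819% of all probes did. Igfbp6, a binding protein with a preference for IGF2, was higher in double mutants than in the 1 Mek1 allele group. However, it was above background on only 1 of the 4 arrays of that group, and the call held in 9 of 25 alternative settings. Controls overlapped both groups, and double mutants did not differ from them past the threshold (limma adjusted p = 0.088). Igf1r lay higher in double mutants than in controls without overlap, as did 7.29% of all probes, but did not pass the threshold. The ligands Igf1 and Igf2 did not pass it in any comparison or alternative setting. The promoters of the first 2 of these genes are shown for reference, as the 300 bases from 250 before to 50 after the start of transcription in RefSeq (build GRCm38.p6), which held windows for 9 of the 10 members. The Igfbp6 window lies on the plus strand at chr15:102143936-102144235 and the Igf1r window on the plus strand at chr7:67952007-67952306, both printed 5′ to 3′. Capitals mark matches, on either strand, to the motifs searched, which were an ETS core (CCGGAA), an AP-1 site (TGANTCA), a GC box (GGGCGG) and a TATA box (TATAAA).
Igfbp6: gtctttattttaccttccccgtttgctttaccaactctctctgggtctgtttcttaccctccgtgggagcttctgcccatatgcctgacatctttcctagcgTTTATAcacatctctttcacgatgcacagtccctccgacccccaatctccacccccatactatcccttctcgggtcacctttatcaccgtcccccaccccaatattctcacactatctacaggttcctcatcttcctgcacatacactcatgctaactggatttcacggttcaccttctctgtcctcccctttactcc
Igf1r: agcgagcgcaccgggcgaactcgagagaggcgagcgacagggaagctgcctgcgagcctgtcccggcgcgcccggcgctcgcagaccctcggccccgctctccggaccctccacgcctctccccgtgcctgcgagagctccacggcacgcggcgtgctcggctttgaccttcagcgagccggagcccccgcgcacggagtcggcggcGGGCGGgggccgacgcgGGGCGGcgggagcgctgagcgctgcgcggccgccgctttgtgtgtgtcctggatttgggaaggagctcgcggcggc
The Igfbp6 window had a G and C content of 49.7% with 8 CpG dinucleotides and 1 match to the TATA box letters. The Igf1r window had a G and C content of 76% with 48 CpG dinucleotides and 2 matches to the GC box. Over all 32817 windows the median G and C content was 52.7%, 13.6% held the TATA box letters and 35.6% the GC box. The ETS core and the AP-1 letters, found in 14.9% and 7.81% of all windows, were in neither of them. A match or its absence describes these letters only.

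Values below are log2 intensities after background correction and quantile normalization, given for replicates 1 to 4 in order or as mean ± SD (n = 4), and changes are log2 differences ± SE from 1 limma fit over all 11841 probes that passed, with Benjamini-Hochberg adjusted p over all of them. The genotypes were read first from the targeted genes. Map2k2, which encodes MEK2, measured 11.59 ± 0.08 for controls, 10.58 ± 0.15 for 1 Mek1 allele and 10.85 ± 0.24 for double mutants on its brighter probe, and the 8 mutant arrays lay below the 4 controls but above background, so signal remained there. Its dimmer probe was above background on 4 control arrays, 0 arrays with 1 Mek1 allele and 1 double mutant array. Where these probes lie relative to the mutated part of the gene is not known here, and the labels of the mutants are checked only this far. Map2k1, which encodes MEK1, had no array above background (0 of 12), which leaves the loss of Mek1 unchecked. The labelled tissue was checked against marker lists: 11 of 11 mesenchyme markers, Tbx4 and Tcf21 among them, and 7 of 8 lung epithelium markers with a probe, including Nkx2-1 and Sftpc, were above background on all 12 arrays, whereas 0 of 7 liver and plasma markers with a probe were above background on 4 arrays or more, and Alb and Afp were so on 0. Some muscle markers were detected: cardiac Myh6 and Myl7 on 11 and 9 arrays, and skeletal Tnni2, Myl1 and Ckm on 6, 4 and 4, and 0 of these 5 passed the threshold or had an unadjusted p under 0.05 in any limma comparison. The upper quartile of scanner intensity was 390.1 on control replicate 2 and 388.3 on control replicate 3, and it did not exceed 306.4 elsewhere.

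Among the ligands, Igf2 gave a very bright signal. Its values were 14.59, 14.72, 14.71 and 14.67 in controls, 14.79, 14.80, 14.88 and 14.59 in the 1 Mek1 allele group, and 14.66, 14.79, 14.67 and 14.97 in double mutants. The 3 ranges overlap, and the group means differed by at most 0.10. Double mutants lay 0.10 ± 0.10 above controls (95% interval -0.12 to 0.31, limma adjusted p = 0.645) and 0.00 ± 0.10 from the 1 Mek1 allele group (95% interval -0.21 to 0.22, limma adjusted p = 0.995). In scanner units the probe ran from 22780 to 36273, on arrays whose brightest probe of any gene ran from 31758 to 48912. Quantile normalization sets a value by its rank on the array, and other scalings gave larger differences from controls. Double mutants lay 0.20 above controls with upper-quartile scaling (limma adjusted p = 0.279) and 0.17 with cyclic loess (limma adjusted p = 0.377). The 1 Mek1 allele group lay 0.09 above controls as reported (limma adjusted p = 0.688). In the alternatives it lay 0.06 to 0.28 above them, with limma adjusted p of 0.184 or more. How far the top of the scanner range compresses differences of so bright a probe was not tested.

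Igf1, the ligand best known for postnatal growth and also made by fetal mesenchyme, did not separate the genotypes either. Its values were 8.90, 8.59, 8.63 and 8.71 in controls, 8.95, 8.32, 8.73 and 8.87 in the 1 Mek1 allele group, and 8.77, 8.52, 8.59 and 8.75 in double mutants. The ranges of the 3 genotypes overlap, and replicate 2 of the 1 Mek1 allele group was the lowest of the 12. The difference between double mutants and controls was -0.05 ± 0.13 (95% interval -0.34 to 0.24, limma adjusted p = 0.877). With 1 Mek1 allele it was 0.01 ± 0.13 (95% interval -0.28 to 0.30, limma adjusted p = 0.985). A fall of more than 0.34 or a rise of more than 0.24 between double mutants and controls lies outside the first interval.

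The signalling receptor Igf1r had the largest difference between double mutants and controls in the fit reported here. Igfbp7 probe 1 had a larger one than Igf1r with the authors' log2 values (0.48 against 0.43), without background correction (0.48 against 0.43), with array brightness as a covariate (0.74 against 0.61), without the 2 brightest arrays (0.80 against 0.72), without control replicate 2 (0.66 against 0.64) and without double mutant replicate 4 (0.73 against 0.61). The Igf1r values were 7.03, 6.92, 7.15 and 6.78 in controls, 6.94, 6.78, 7.51 and 7.04 in the 1 Mek1 allele group, and 7.37, 8.01, 7.35 and 7.80 in double mutants. All 4 double mutant values lay above all 4 controls, and replicate 3 of the 1 Mek1 allele group reached into the double mutant range. The difference from controls was 0.66 ± 0.18, or 1.58-fold (95% interval 0.28 to 1.04, limma adjusted p = 0.0626), just short of the threshold of 0.05. Against the 1 Mek1 allele group it was 0.56 ± 0.18 (95% interval 0.18 to 0.95, limma adjusted p = 0.231), and between that group and controls it was 0.10 ± 0.18 (limma adjusted p = 0.827). The order of the means was control, 1 Mek1 allele, double mutant, with neither neighbouring pair past the threshold.

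Against controls Igf1r passed the threshold in 7 of 26 alternative settings. With the authors' log2 values the change was 0.43 (limma adjusted p = 0.0252), and without background correction it was also 0.43 (limma adjusted p = 0.0274). It passed too without replicate 3 of the 1 Mek1 allele group (limma adjusted p = 0.034), an array that enters this comparison through the shared estimate of spread. Leaving out the 2 brightest arrays, both controls, gave 0.72 with limma adjusted p = 0.271. In scanner units before normalization the controls ran from 206.0 to 305.2 and the double mutants from 242.2 to 330.8, so the separation of the groups appeared only after arrays had been brought to a common scale.

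**Figure D1:**
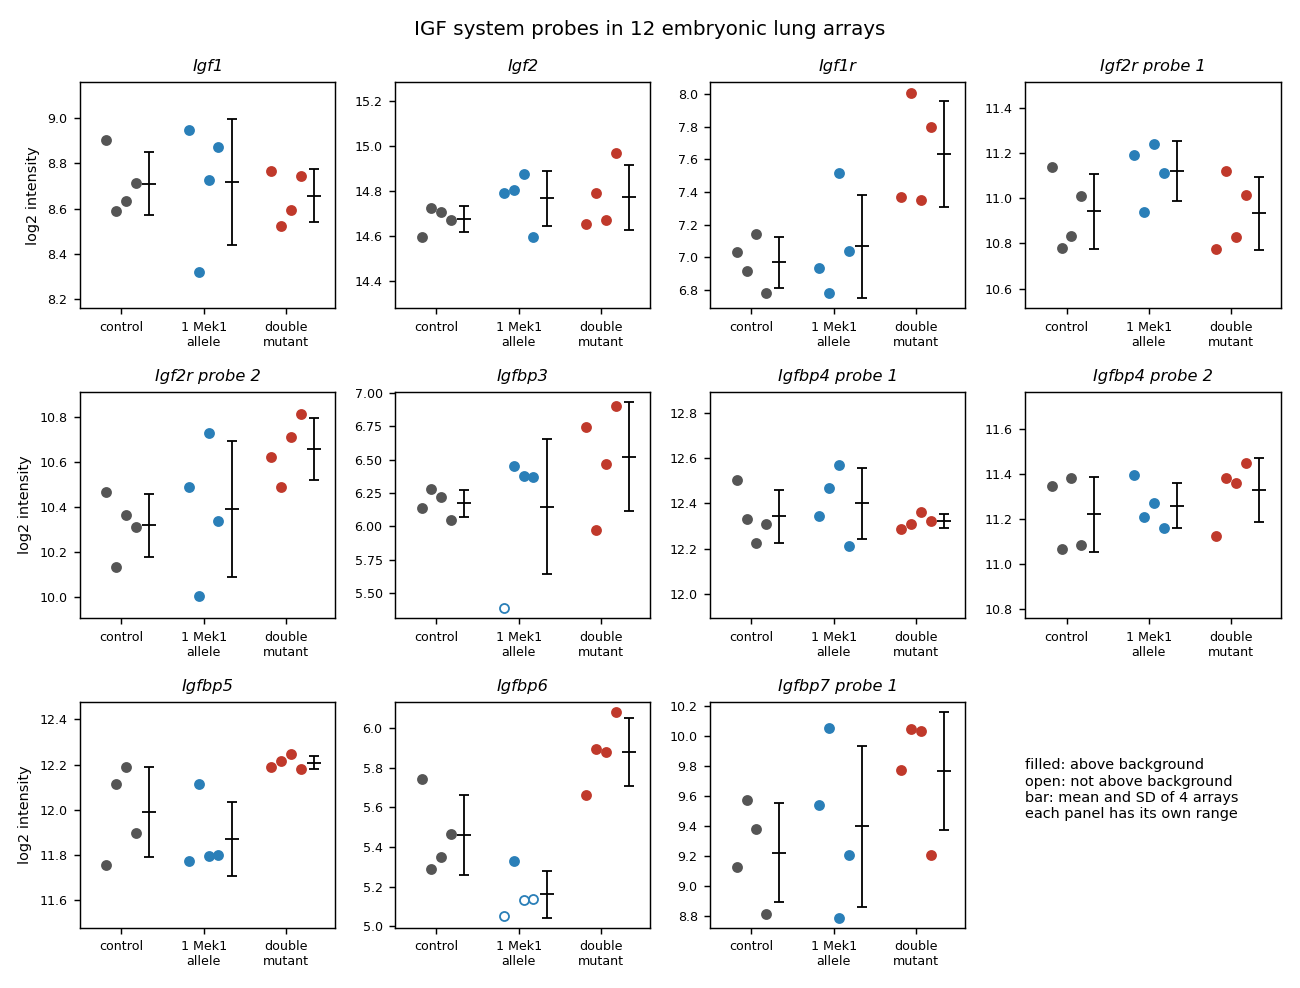
Normalized log2 intensity of the 11 IGF system probes that passed the filter (vertical axis, its own range in each panel) on the 4 arrays of each genotype (points), with the mean and SD beside them. Double mutant points of Igf1r lie above all control points, those of Igfbp6 above all points with 1 Mek1 allele, while the genotypes overlap for Igf1, Igf2 and Igfbp4.

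Igf2r, the receptor that clears IGF2, was read by a pair of probes that did not show the same pattern. Probe 1, the brighter, had 11.14, 10.78, 10.83 and 11.01 in controls, 11.19, 10.94, 11.24 and 11.11 in the 1 Mek1 allele group, and 10.78, 11.12, 10.83 and 11.01 in double mutants. Probe 2 had 10.47, 10.13, 10.36 and 10.31 in controls, 10.49, 10.01, 10.73 and 10.34 in the 1 Mek1 allele group, and 10.62, 10.49, 10.71 and 10.81 in double mutants. Probe 1 overlapped throughout, whereas on probe 2 the double mutants lay just above the controls. Against controls probe 1 changed by -0.01 ± 0.12 (limma adjusted p = 0.983) and probe 2 by 0.34 ± 0.14 (limma adjusted p = 0.222), neither past the threshold.

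The disagreement was looked at within arrays, as probe 2 minus probe 1, a comparison chosen after these values had been seen. The difference was -0.67, -0.65, -0.47 and -0.70 in controls, -0.71, -0.93, -0.51 and -0.77 in the 1 Mek1 allele group, and -0.15, -0.63, -0.12 and -0.20 in double mutants. Double mutant replicates 1, 3 and 4 stood apart from the other 9 arrays, and replicate 2 lay among them. The mean was -0.28 ± 0.24 (n = 4) in double mutants and -0.62 ± 0.10 in controls (two-sided exact permutation test, p = 0.0571, adjusted p = 0.171 over 6 tests, where 70 splits allow 0.0286 at the least). For the pair of Igfbp4 probes the same exact test gave adjusted p from 0.4 to 0.943. The position of either probe on the transcript is not known here.

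**Figure D2:**
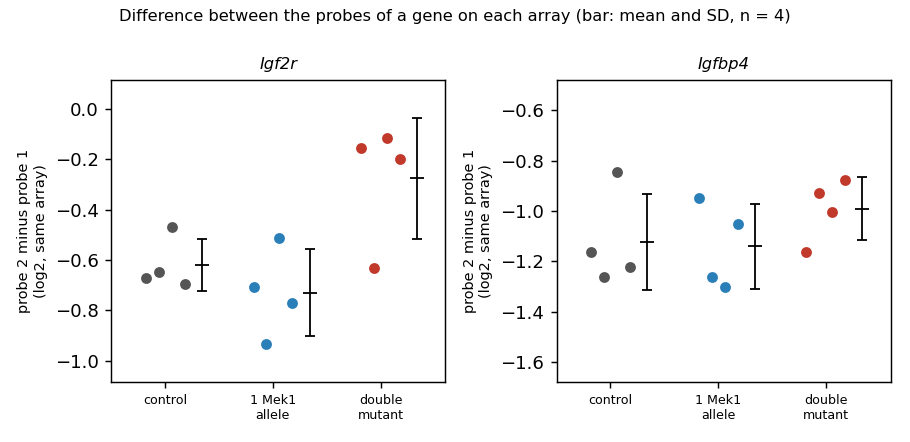
Log2 difference between the second and the first probe of the same gene on the same array (vertical axis), for Igf2r and Igfbp4, by genotype, with mean and SD (n = 4). For Igf2r, 3 of the 4 double mutant arrays lie between -0.20 and -0.12, above the remaining 9 arrays, while the Igfbp4 points of the genotypes overlap.

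Of the binding proteins, Igfbp6 was the one whose change passed the threshold. Its values were 5.74, 5.29, 5.35 and 5.47 in controls, 5.05, 5.33, 5.13 and 5.14 in the 1 Mek1 allele group, and 5.66, 5.89, 5.88 and 6.08 in double mutants. All 4 double mutants lay above all 4 arrays with 1 Mek1 allele, and the controls fell between and overlapped both. It was 0.72 ± 0.12 higher, or 1.64-fold, in double mutants than with 1 Mek1 allele (95% interval 0.45 to 0.98, limma adjusted p = 0.0356), a fold that rests on a group in which only 1 of 4 arrays was above background. Against controls it was 0.42 ± 0.12 higher in double mutants (limma adjusted p = 0.088) and 0.30 lower with 1 Mek1 allele (-0.30 ± 0.12, limma adjusted p = 0.246), neither past the threshold. The order of the means was 1 Mek1 allele, control, double mutant, and only the outer pair differed beyond the threshold.

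Igfbp6 was a dim probe, so its signal stood little above the array background. It was above background on 4 of 4 control arrays, 1 of 4 in the 1 Mek1 allele group and 4 of 4 double mutant arrays, so within the comparison in which it was called only the higher group was measured on every array. Scanner intensities were 139.1, 149.2, 150.4 and 140.7 in controls, 128.9, 110.9, 118.6 and 117.9 in the 1 Mek1 allele group, and 140.7, 139.8, 149.7 and 156.7 in double mutants. Above the background level of each array, taken as the median intensity of probes whose detection p put them in the middle of the negative controls, this left 33.7, 35.8, 36.4 and 30.6 units in controls, 16.2, 19.6, 15.2 and 19.7 in the 1 Mek1 allele group, and 31.9, 43.6, 50.8 and 49.97 in double mutants. In these unscaled units the arrays with 1 Mek1 allele lay below the other 8, while controls and double mutants overlapped in 1 array, double mutant replicate 1. Such units are not corrected for array brightness. The upper quartile of scanner intensity was 226.6 to 288.0 on the arrays with 1 Mek1 allele and 261.3 to 390.1 on the other 8. After normalization the 1 Mek1 allele group overlapped controls, with 5.33 on its replicate 2 against 5.29 on control replicate 2.

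The size and the call of Igfbp6 both depended on the settings. The change from 1 Mek1 allele to double mutant was 0.25 with the authors' log2 values (limma adjusted p = 0.162) and 0.25 without background correction (limma adjusted p = 0.143). It passed in 9 of 25 settings, with adjusted p from 0.0226 to 0.162. The call was lost without control replicate 3 (limma adjusted p = 0.0537) or 4 (limma adjusted p = 0.0544), which are not in the comparison but share its estimate of spread. It was lost without replicate 1, 3 or 4 of the 1 Mek1 allele group (limma adjusted p = 0.0679, 0.0683 and 0.0822) and without double mutant replicate 2, 3 or 4 (limma adjusted p = 0.108, 0.0684 and 0.116). With the replicate number as a block limma adjusted p was 0.0805. In these 12 omissions the change itself stayed between 0.65 and 0.79. Against controls the change passed without control replicate 1 (0.51, limma adjusted p = 0.0397) and with array weights (0.48, limma adjusted p = 0.017), and it was 0.28 without the 2 brightest arrays (limma adjusted p = 0.518).

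**Figure D3:**
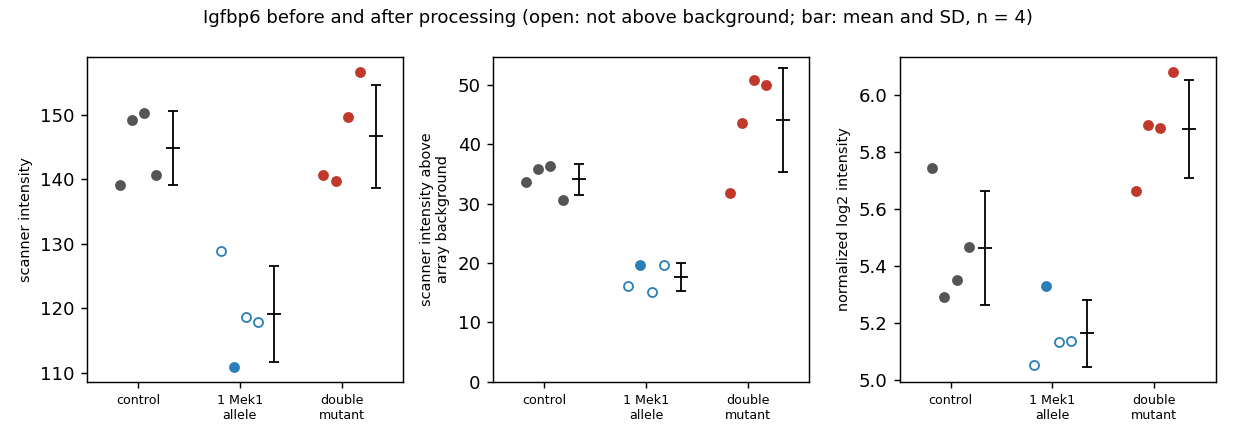
Igfbp6 on each array as scanner intensity, as scanner intensity above the background level of that array, and as normalized log2 intensity (vertical axes), by genotype, with mean and SD (n = 4). Open points were not above background. Arrays with 1 Mek1 allele have 15.2 to 19.7 units above background against 30.6 to 50.8 on the other 8.

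**Figure D4:**
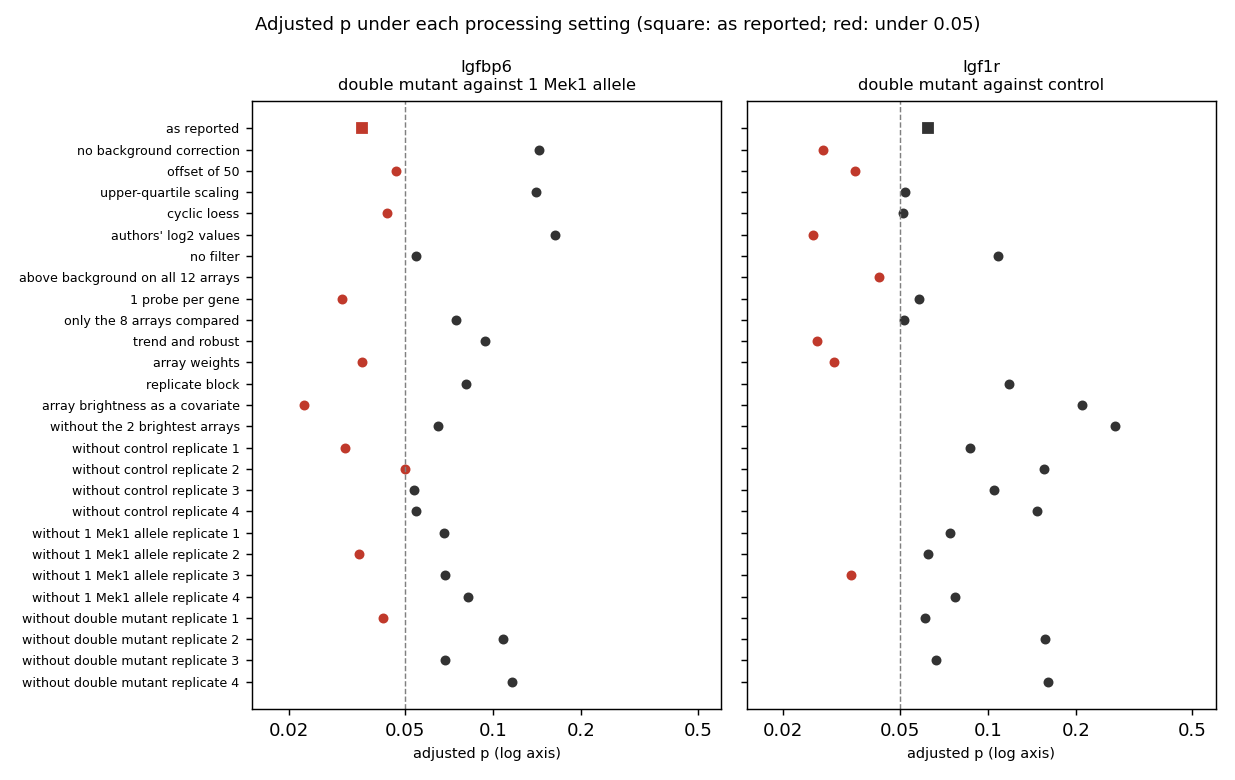
Adjusted p (log axis) of Igfbp6 in double mutants against 1 Mek1 allele and of Igf1r in double mutants against controls under the reported fit (square) and each alternative (circles), with a dashed line at 0.05. Igfbp6 lies under the line in 9 of 25 alternatives and Igf1r in 7 of 26.

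Markers of other cell types also moved in double mutants, in both directions, and their part in the Igfbp6 and Igf1r results was not tested. Of 6 mesothelial markers 4 were measured, and against controls 2 of them rose in double mutants, the surface plaque protein gene Upk3b by 0.65 ± 0.13 (limma adjusted p = 0.0165) and the keratin gene Krt19 by 0.69 ± 0.15 (limma adjusted p = 0.0253). The summed level of the 4 ran from 10.22 to 10.38 in controls, 10.29 to 10.48 in the 1 Mek1 allele group and 10.67 to 11.04 in double mutants. A summed level is the log2 of the sum of unlogged values, so the brightest markers of a list weigh most in it. Against the 1 Mek1 allele group, where Igfbp6 passed, none of the 4 did (0 of 4, with 2 at unadjusted p under 0.05), Wt1 differed by 0.36 (limma adjusted p = 0.461), and the defining markers Msln and Lrrn4 were above background on 1 and 0 of 12 arrays. From controls, Wt1 differed by 0.08 ± 0.17 in double mutants (limma adjusted p = 0.847). The fourth measured marker, Upk1b, was -0.44 ± 0.21 from controls in double mutants (limma adjusted p = 0.281). The 3 measured macrophage markers were the complement genes C1qa, C1qb and C1qc, with a summed level of 8.88 to 9.21 in controls, 9.10 to 9.48 in the 1 Mek1 allele group and 9.29 to 10.17 in double mutants, and C1qc rose against controls by 0.81 ± 0.13 (limma adjusted p = 0.00686), while the defining marker Adgre1 was above background on 1 of 12 arrays. Against the 1 Mek1 allele group 0 of these 3 passed, with 2 at an unadjusted p under 0.05. Of 8 erythroid markers 6 were measured, and Slc4a1, which encodes the chloride and bicarbonate exchanger of erythrocyte membranes, fell in double mutants by 1.03 ± 0.19 against controls (limma adjusted p = 0.0131) and by 0.99 ± 0.19 against the 1 Mek1 allele group (limma adjusted p = 0.0471), the comparison in which Igfbp6 passed. Against controls 5 of the 6 had an unadjusted p under 0.05, among them the embryonic globin genes Hbb-bh1 at 1.06 ± 0.27, Hba-x at 0.77 ± 0.20 and Hbb-y at 0.55 ± 0.18 (limma adjusted p = 0.0543, 0.0542 and 0.135) and the heme synthesis gene Alas2 at -0.40 ± 0.16 (limma adjusted p = 0.193). The summed level of the 6 was 15.11 to 15.42 in controls, 15.36 to 15.48 in the 1 Mek1 allele group and 15.32 to 15.56 in double mutants. Hba-a1, with a mean of 14.82 in controls, weighs most in this sum, which does not show the opposite changes of dimmer members. Of 8 measured lung epithelium markers 0 passed in any comparison, with a median change of 0.22 in double mutants against controls. Sox2 came nearest, at 0.58 ± 0.15 in that comparison (limma adjusted p = 0.0515). Their summed level was 12.90 to 13.54 in controls, 13.17 to 13.39 with 1 Mek1 allele and 13.20 to 13.72 in double mutants. Of 11 mesenchyme markers 0 passed in any comparison. Their summed level was 12.80 to 13.05 in controls, 12.95 to 13.08 in the 1 Mek1 allele group and 12.85 to 13.13 in double mutants. Among the mesenchyme markers 2, 0 and 3 had an unadjusted p under 0.05 in double mutants against controls, double mutants against 1 Mek1 allele and 1 Mek1 allele against controls. Of 6 smooth muscle markers 5 were measured and 0 passed in any comparison. Their summed level was 14.705 to 14.818 in controls, 14.655 to 14.763 with 1 Mek1 allele and 14.587 to 14.695 in double mutants. In double mutants Acta2 was -0.18 ± 0.08 and Des 0.31 ± 0.11 from controls (limma adjusted p = 0.249 and 0.151).

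Igfbp5, a binding protein that also attaches to extracellular matrix, had a narrow range in double mutants. Its values were 11.75, 12.11, 12.19 and 11.90 in controls, 11.77, 12.11, 11.79 and 11.80 in the 1 Mek1 allele group, and 12.19, 12.22, 12.25 and 12.18 in double mutants. The double mutants lay above all arrays with 1 Mek1 allele and close to the top of the control range, which they overlapped. The difference was 0.34 ± 0.11 from the 1 Mek1 allele group (95% interval 0.09 to 0.58, limma adjusted p = 0.275) and 0.22 ± 0.11 from controls (95% interval -0.03 to 0.47, limma adjusted p = 0.328), neither past the threshold. With 1 Mek1 allele it was -0.12 ± 0.11 from controls (limma adjusted p = 0.648).

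Igfbp3, the main carrier of IGFs in adult serum, was dim, with 6.17 ± 0.10 in controls, 6.15 ± 0.51 in the 1 Mek1 allele group and 6.52 ± 0.41 in double mutants. Its spread with 1 Mek1 allele came from replicate 1 at 5.39, the only array on which it was not above background, against 6.37 to 6.45 on the other 3. The difference between double mutants and the 1 Mek1 allele group was 0.37 ± 0.23 (limma adjusted p = 0.604) and 0.12 without that array (limma adjusted p = 0.876). Against controls it was 0.35 ± 0.23 (limma adjusted p = 0.458).

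Igfbp4, which binds IGFs until the protease PAPP-A cleaves it, was bright and even on both of its probes. Probe 1 had 12.34 ± 0.12 in controls, 12.40 ± 0.16 in the 1 Mek1 allele group and 12.32 ± 0.03 in double mutants. Probe 2 had 11.22 ± 0.17, 11.26 ± 0.10 and 11.33 ± 0.14 in the same groups. The 6 differences between groups ran from -0.08 to 0.11, with limma adjusted p of 0.64 or more. For double mutants against controls the 95% interval was -0.24 to 0.19 on probe 1 and -0.13 to 0.34 on probe 2.

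Igfbp7, a relative of the binding proteins with weak IGF binding that is found around blood vessels, varied within genotypes, with an SD of 0.33 to 0.53. Its values were 9.13, 9.58, 9.38 and 8.81 in controls, 9.54, 10.06, 8.79 and 9.21 in the 1 Mek1 allele group, and 9.78, 10.05, 10.03 and 9.21 in double mutants. The ranges overlap, although 3 of the 4 double mutants lay above all controls. Double mutants were 0.54 ± 0.26 from controls (95% interval -0.02 to 1.10, limma adjusted p = 0.287) and 0.37 ± 0.26 from the 1 Mek1 allele group (limma adjusted p = 0.656). Markers of endothelium had a summed level that reached 12.15 in controls, 12.05 in the 1 Mek1 allele group and 12.04 in double mutants. The lowest array, a double mutant, had 11.81. Of 5 measured markers 0 passed the threshold in any comparison, with 1, 0 and 0 at an unadjusted p under 0.05. Tie1 came nearest, at 0.34 ± 0.09 in double mutants against controls (limma adjusted p = 0.0501). The marker Kdr was above background on 1 of 12 arrays.

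Taking the 11 probes together, 0 passed in double mutants against controls, where 2.97% of all 11841 probes did (1.83% higher and 1.14% lower), and 3 of the 11 had an unadjusted p under 0.05, as did 18.4% of all. In double mutants against 1 Mek1 allele 1 passed, in the higher direction, where 0.397% of all probes did (0.287% higher and 0.11% lower), and 3 had an unadjusted p under 0.05, as did 11.3% of all. With 1 Mek1 allele against controls 0 passed, where 0.819% did (0.439% higher and 0.38% lower), and 1 had an unadjusted p under 0.05, as did 16.1% of all. The groups did not overlap for 2 of the 11 probes (Igf1r and Igf2r probe 2) in double mutants against controls, where 13.4% of all probes did not overlap and 7.29% were higher, for 2 (Igfbp5 and Igfbp6) against 1 Mek1 allele, where 6.08% did not and 3.65% were higher, and for 0 in the last comparison, where 9.73% did not and 4.57% were higher. The median change of the 11 was 0.22, 0.27 and 0.06 in the same order, beside -0.01, 0.00 and 0.00 over all probes. The 2 double mutant comparisons share the double mutant arrays, so these values are not independent of each other.

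**Figure D5:**
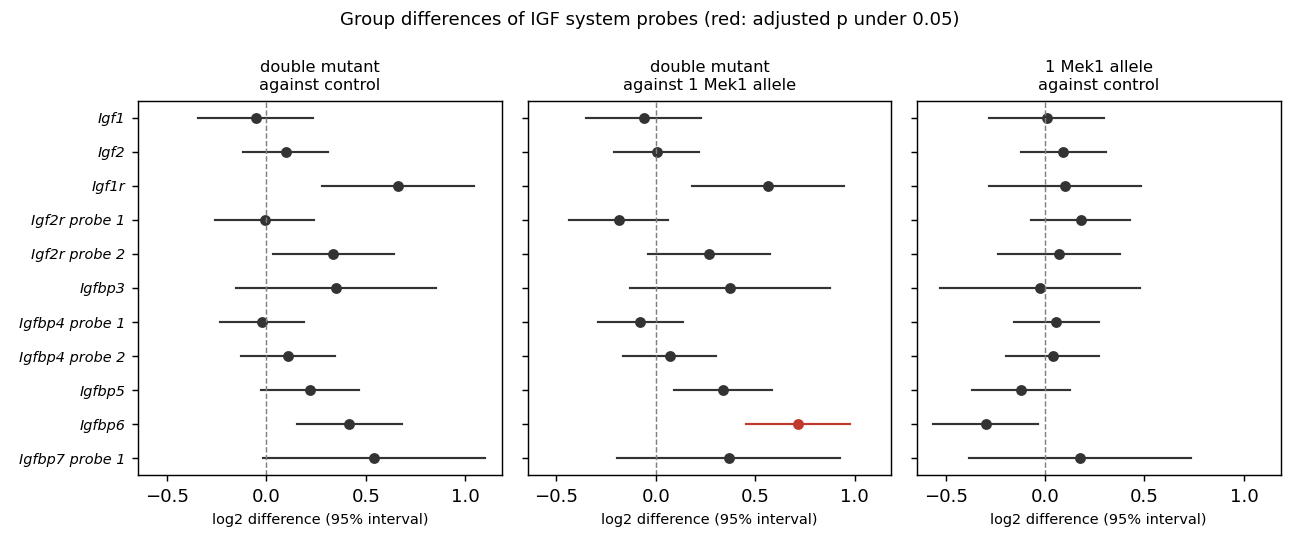
Log2 difference between groups (horizontal axis, with 95% interval) of the 11 IGF system probes in each of the 3 comparisons, with adjusted p under 0.05 in red. Igfbp6 in double mutants against 1 Mek1 allele is the single red point, at 0.72.

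Other genes of the pathway were read from lists, 1 probe per gene. Of 8 other genes that set IGF availability 3 were measured, and 0 passed in any comparison. Igfbp2, a binding protein abundant in fetal tissue, was 0.30 ± 0.11 above controls in double mutants (limma adjusted p = 0.15) and 0.36 ± 0.11 above them with 1 Mek1 allele (limma adjusted p = 0.119), Stc2, an inhibitor of the protease PAPP-A, was 0.18 ± 0.12 above controls in double mutants (limma adjusted p = 0.462), and the secreted protease Htra1 was 0.33 ± 0.13 above the 1 Mek1 allele group (limma adjusted p = 0.35). Of 28 genes of receptor signalling 18 were measured and 0 passed, with 3, 2 and 4 at an unadjusted p under 0.05 in double mutants against controls, double mutants against 1 Mek1 allele and 1 Mek1 allele against controls. Over 1 probe per gene, 3%, 0.469% and 0.698% of 8311 genes passed in these comparisons.

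Both mutant groups are compared with the same controls. Pik3r2, a regulatory subunit of PI3K, was 0.45 ± 0.13 above controls in double mutants (limma adjusted p = 0.0934) and 0.39 ± 0.13 with 1 Mek1 allele (limma adjusted p = 0.179). Eif4ebp1, a repressor of translation that mTOR phosphorylates, was 0.43 ± 0.13 above in double mutants (limma adjusted p = 0.104) and 0.47 ± 0.13 with 1 Mek1 allele (limma adjusted p = 0.113). Tsc2, part of the complex that restrains mTOR, was 0.24 ± 0.11 above controls in double mutants (limma adjusted p = 0.262). Pdpk1, the kinase that activates AKT, was 0.41 ± 0.18 above controls with 1 Mek1 allele (limma adjusted p = 0.275). Pik3r3, another PI3K regulatory subunit, was 0.21 ± 0.09 above the 1 Mek1 allele group (limma adjusted p = 0.373). The median change of the 18 genes was 0.04, 0.07 and -0.05 in the 3 comparisons.

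Igf2 and Igf2r belong to the imprinted genes, of which one parental copy is silent. Of 27 others listed 12 were measured and 0 passed in any comparison, with 0, 1 and 3 at an unadjusted p under 0.05 in the same order. Grb10, an adaptor that dampens insulin and IGF receptor signals, was -0.23 ± 0.09 from controls with 1 Mek1 allele (limma adjusted p = 0.216), and Cdkn1c, a cell cycle inhibitor from the same imprinted region as Igf2, was 0.23 ± 0.10 above the 1 Mek1 allele group in double mutants (limma adjusted p = 0.427). Phlda2, which restrains placental growth, was 0.38 ± 0.14 above controls with 1 Mek1 allele (limma adjusted p = 0.204), and Nnat was 0.34 ± 0.12 above them (limma adjusted p = 0.189). Of 19 neighbours of Igf2 and H19 on the chromosome 10 were measured and 0 passed, with 1 at an unadjusted p under 0.05 in each comparison, and Tssc4 was 0.32 ± 0.12 above controls in double mutants (limma adjusted p = 0.19). The 2 measured genes of proteins that bind Igf2 messenger RNA, Igf2bp1 and Igf2bp3, differed from controls by 0.01 ± 0.19 and 0.04 ± 0.12 in double mutants, 0 of them past the threshold or at an unadjusted p under 0.05 in any comparison.

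The CCN proteins share a domain with the IGF binding proteins. Of 6 CCN genes 3 were measured and 0 passed, with 1, 1 and 0 at an unadjusted p under 0.05. Ccn1 was -0.55 ± 0.18 from the 1 Mek1 allele group in double mutants (limma adjusted p = 0.248), and Ccn2 was -0.24 ± 0.10 from controls (limma adjusted p = 0.238).

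Genes whose values followed a member most closely over the 12 arrays were taken by Pearson correlation among 8311 genes. This only describes arrays that differ in brightness and genotype, and the labels name no batch. For Igfbp6 the most alike genes were Inpp5a (r = 0.92), Cdkl2 (r = 0.91) and the growth factor gene Fgf1 (r = 0.90). Fgf1 was itself 0.65 higher in double mutants than in the 1 Mek1 allele group on that probe (limma adjusted p = 0.0356) and 0.24 on its other probe (limma adjusted p = 0.484). The first of these Fgf1 probes was also 0.47 higher in double mutants than in controls (limma adjusted p = 0.0309), a comparison in which Igfbp6 did not pass. For Igf1 the most alike genes were Phf23 (r = 0.92), Taf11 (r = 0.91) and Nsdhl (r = 0.89), and for Igf2 Anxa2 (r = 0.89), Cracr2b (r = 0.84) and Arrb1 (r = 0.84).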

How the data were processed

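Total RNA from 12 lung specimens was hybridised to Illumina bead arrays. Per the file headers, each array has deposited linear intensities, unnormalized, with a detection p-value for every probe. The authors also deposited log2 values, which keep the ranks of the scanner intensities (medians 6.91 to 6.93) and lie within a median of 0.0039 of quantile normalization without background correction. Their software is not given in the sources.

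Background was corrected by nec from the detection p-values (offset 16), followed by quantile normalization (limma 3.58.1, R 4.3.3). Probes with detection p under 0.01 on at least 4 arrays (11841 of 25697) entered 1 lmFit and eBayes fit of 3 group means, two-sided, with adjusted p under 0.05. The fit was tested on simulated data with independent normal noise. That check required recovery only of its largest planted changes, which were larger than any member difference here. Probes above background numbered 10467 to 11878 per array, and the number of arrays limits the precision. Within groups array correlations ran from 0.979 to 0.993.

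Of the probes, 23978 had 1 symbol in the platform annotation, 0 several and 1719 none. A RefSeq table (GRCm38.p6) served for names and promoters only. For lists and likeness the passing probe with the highest mean stood for a gene. Named were all members, pathway list members past the threshold or among those with the smallest p (up to 4 a list in a comparison), the 3 most alike genes of Igf1, Igf2 and members past the threshold, and defining markers or markers past the threshold. Other markers were named after their values were seen. The members and lists were chosen with earlier results of these data known. The planned correlation of Igf2 with H19 was not run.

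Alternatives covered background, scaling, the authors' values, filters, 1 probe per gene, the arrays compared, variance models, array weights, a replicate block, brightness, and omitted arrays.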

Additional observations from a re-analysis of the deposited data

Results flagged for a closer look

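In 2 of the 33 groups of 4 values examined, 1 array lay far from the other 3 (gap over range above Dixon's 95% critical value), where chance alone gives about 1 in 20. Igfbp3 was 5.39 on replicate 1 of the 1 Mek1 allele group, against 6.37 to 6.45 on the others. Igfbp5 was 12.11 on replicate 2 of that group, against 11.77 to 11.80. Without that array the Igfbp5 difference between double mutants and 1 Mek1 allele was 0.42 (limma adjusted p = 0.156) in place of 0.34.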

How the results depend on the processing

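Over 33 probe changes and 26 alternatives, 40 of 846 values changed sign. All 40 belonged to 13 changes whose reported size was 0.17 or less and none of which was called. For double mutants against controls the count of IGF system probes past the threshold was 0 as reported, 1 without background correction, with an offset of 50, with the authors' log2 values, with probes above background on all 12 arrays or with the trend and robust variance model (each time Igf1r), and 2 with array weights (Igf1r and Igfbp6). It was 0 to 1 when single arrays were left out. In double mutants against 1 Mek1 allele the count was 1 as reported, and 0 without background correction, with upper-quartile scaling, with the authors' values, with no filter, with probes above background on all 12 arrays (which leaves Igfbp6 out), with only the 8 arrays compared, with the trend and robust model, with the replicate block and without the 2 brightest arrays, and 0 to 1 when single arrays were left out. With 1 Mek1 allele against controls it was 0 in all 26. The labels do not say if a replicate number is shared by litters or days. Over all passing probes, deviations of same-numbered arrays correlated at -0.23 to 0.17 over 12 pairs, which cannot exclude sharing. Igf1 was lowest on replicate 2 in each genotype (8.59, 8.32 and 8.52). For double mutants against controls the block changed the SE of Igf1 from 0.13 to 0.10 and that of Igf1r from 0.18 to 0.19. Apart from Igfbp6 the block changed no call of an IGF system probe. Dim signal limits Igfbp6 and Igfbp3, whose intensities stood 15.2 to 50.8 and 23.5 to 98.0 units above background. Cells of different types were not separated, and loss of Mek1 remains unchecked. The correlation of Igf2 with H19 was not run under any setting, as no probe carried the H19 symbol.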
